A study of Rattus norvegicus with 60 samples.

Results

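Spinal cord oedema, the swelling that follows a contusion, involves water channels and the transporters that set chloride and potassium across cell membranes. Of the genes read on the arrays of this study, 8 of these are described here, each taken as the probe set whose single gene symbol equals the name. They are the aquaporins Aqp1, Aqp4 and Aqp9, the potassium channel Kcnj10 (Kir4.1), the sulfonylurea receptor Abcc8 (SUR1), the cation channel Trpm4, and the cation-chloride cotransporters Slc12a2 (NKCC1) and Slc12a5 (KCC2). Each gene had 1 probe set, so 8 of the 27342 probe sets of the array and 8 of the 14324 genes tested are described.

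Spinal cord RNA came from 60 female Long Evans rats aged 8 or 9 weeks, 1 Rat Gene 1.0 ST array per rat. The injured rats had a weight dropped on the cord after a thoracic laminectomy, and a 5 mm piece of cord at the lesion was taken. All rats received an intravenous vehicle of 70% ethanol, alone (EtOH) or carrying 30 mg/kg of the glucocorticoid methylprednisolone (MP). The groups were sham rats with the vehicle (S-EtOH), sham rats with MP (S-MP), injured rats with the vehicle (SCI-EtOH) and injured rats with MP (SCI-MP), with 2 rats per group at each of 7 times between 2 h and 48 h after medication (those on the time axes of the plots), and 2 further rats of S-EtOH and of SCI-EtOH at 0 h. MP was therefore always given with ethanol, no rat went without the vehicle, and no rat given MP was taken at 0 h.

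As background, water enters and leaves the central nervous system largely through Aqp4, which sits in the endfeet that astrocytes press against blood vessels and the pial surface. Kcnj10 lies in the same endfeet and lets astrocytes take up the potassium that active neurons release. Slc12a2 carries sodium, potassium and chloride into cells, whereas Slc12a5, which is restricted to neurons, carries potassium and chloride out and so keeps neuronal chloride low enough for GABA and glycine to inhibit. Abcc8 is best known as the regulatory subunit of the ATP-sensitive potassium channel of the pancreatic beta cell, and in injured brain and cord it has been described in a complex with Trpm4, a calcium-activated channel for monovalent cations.

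The deposited values are on a log2 scale centred per probe set, so a value of 0 is no absolute level, and levels of different genes cannot be compared. Differences over 2 to 48 h are the mean of the 7 times, from limma fitted over all 60 arrays, with Benjamini-Hochberg adjusted p-values over the 14324 genes and a threshold of 0.05. With 2 rats at a time, p-values rest on the spread within these pairs. Within a pair of rats, the correlation over probe sets had a median between 0.484 (S-MP) and 0.761 (SCI-MP) in the 4 groups. The SCI-EtOH pair at 6 h stood apart with 0.161. Differences over 7 times and changes over time were therefore also fitted without the 6 h arrays. For the genes named at the start, calls gained or lost in that fit are given. In whole tissue, fewer cells of a type and less RNA per cell cannot be told apart. As the values hold no brightness, the presence of the tissue's own markers could not be checked.

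Injury differences were common among these genes, as they were among all genes. In SCI-EtOH against S-EtOH, 2 of the 8 were higher (35.1% of all genes tested were) and 5 were lower (27.5% of all genes), so 7 differed where 62.7% of all genes did. Aqp1 and Trpm4 were higher, Aqp4, Kcnj10, Abcc8, Slc12a2 and Slc12a5 were lower, and Aqp9 did not pass. The median difference of the 8 was -0.40 on the log2 scale, beside 0.04 for all genes. Under MP (SCI-MP against S-MP), 1 of the 8 was higher (21.7% of all genes) and 6 were lower (33.3% of all genes), so 7 differed where 55% of all genes did, with a median of -0.47 beside 0.0037 for all genes. Both comparisons are plotted by gene with the MP comparisons, and the values of every array by time.

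**Figure D1:**
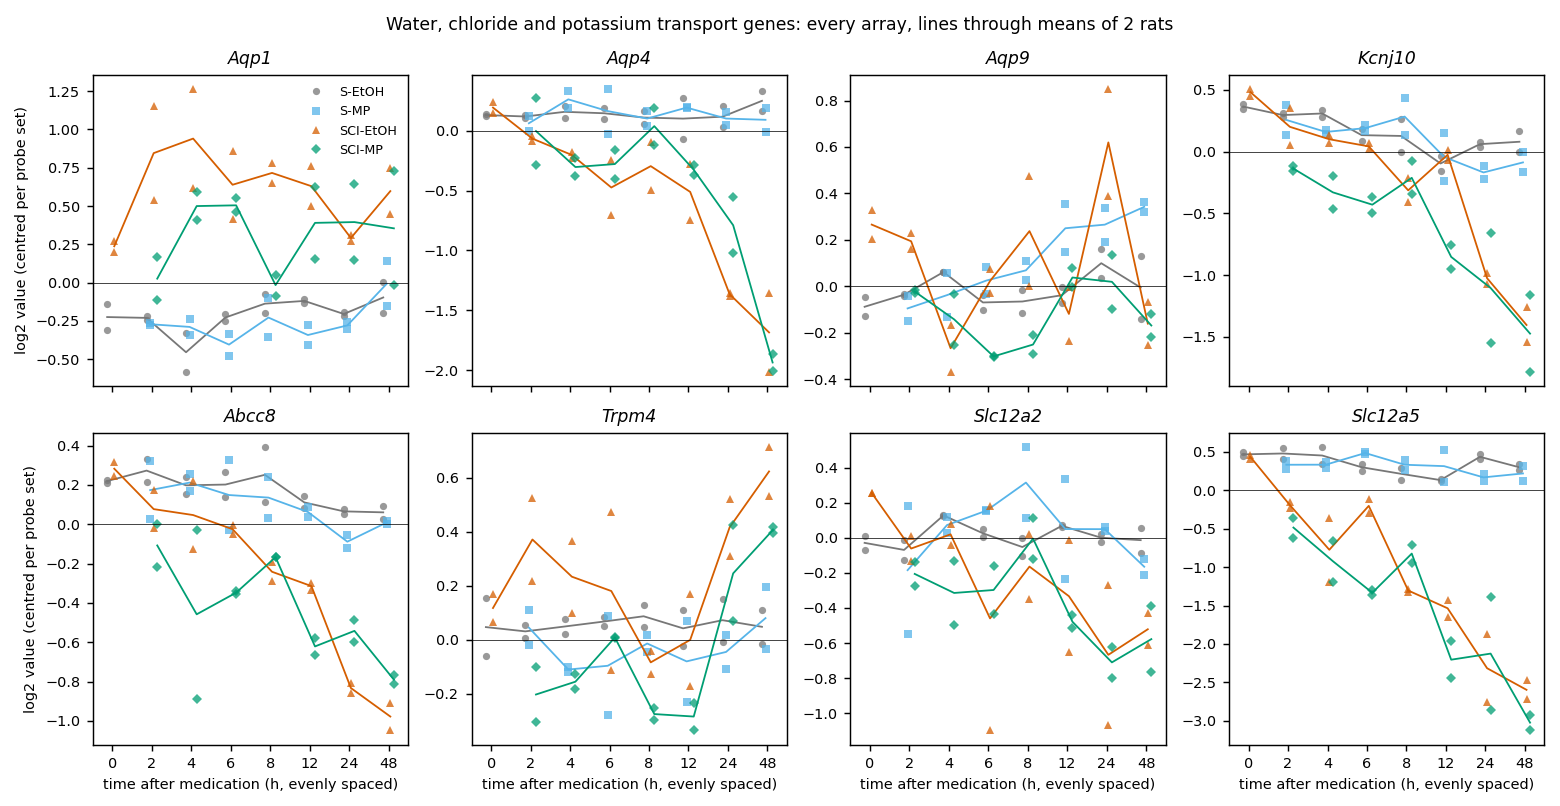
Log2 value of each array (vertical axis, centred per probe set) against time after medication in h (horizontal axis, evenly spaced) for the 8 genes, with 1 point per rat, 4 groups, and lines joining each pair's mean. Injured arrays of Slc12a5 lie below all sham arrays from 2 h on, and the SCI-EtOH arrays of Aqp1 lie above all S-EtOH arrays from 2 h on.

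**Figure D2:**
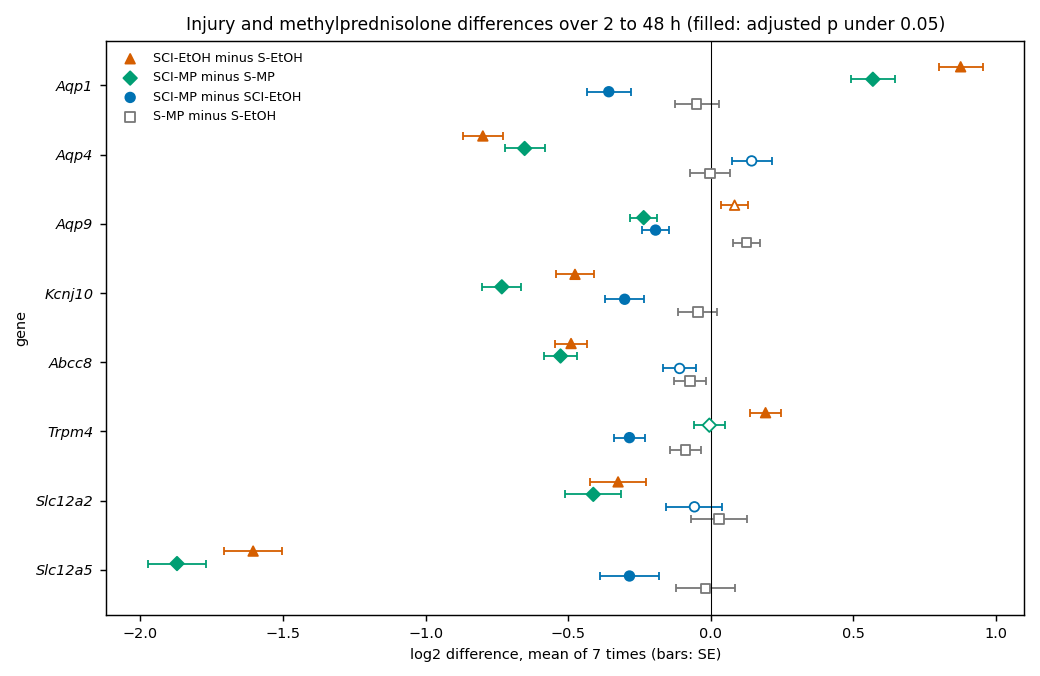
Mean log2 difference over 7 times (horizontal axis) for each gene (vertical axis) in 4 comparisons, with bars for the SE and filled symbols for an adjusted p under 0.05. Slc12a5 lies farthest left at -1.61 without MP and -1.87 with MP, and none of the differences between sham groups is filled.

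Aqp1, a water channel of red blood cells, choroid plexus and many endothelia, was the gene of the 8 that rose most. Its promoter is shown as that of the member that rose most, 250 bases before the transcript start in RefSeq (GRCr8, chr4:85812534-85812783, plus strand), with the matches to the motifs searched in capitals, a TATA box (TATAAA) and a GC box (GGGCGG).
Aqp1: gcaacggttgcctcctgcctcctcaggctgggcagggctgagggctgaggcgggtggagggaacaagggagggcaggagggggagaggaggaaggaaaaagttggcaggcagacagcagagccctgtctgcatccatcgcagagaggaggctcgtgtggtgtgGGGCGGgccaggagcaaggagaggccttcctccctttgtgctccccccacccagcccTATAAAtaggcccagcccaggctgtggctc
The TATA box begins 30 bases before the start. Both strands were searched, and 12.9% of the 33469 promoters of this length hold TATAAA and 30.5% hold GGGCGG.

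The Aqp1 values of the 14 S-EtOH arrays from 2 h on ran from -0.58 to 0.01 with a median of -0.20, and those of the 14 SCI-EtOH arrays from 0.27 to 1.27 with a median of 0.63. All 14 injured arrays therefore lay above all 14 sham arrays. Aqp1 was 1.84-fold higher in SCI-EtOH (log2 difference 0.88, SE 0.08, limma adjusted p = 7.1e-12). Its SCI-EtOH values were 1.15 and 0.54 at 2 h, 1.27 and 0.61 at 4 h and 0.31 and 0.27 at 24 h, the time with the lowest mean. The 2 rats of a time stood far from each other at 2, 4 and 6 h.

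At single times Aqp1 passed at 2, 4, 6, 8, 12 and 48 h without MP, at log2 differences from 0.69 to 1.40 (limma's moderated F test over the 4 groups with Benjamini-Hochberg adjustment, then Tukey's range). The calls at 4 h and 8 h held in each of the 60 fits that left out 1 array, but under the plain one-way analysis of variance with Tukey's range that the methods describe, all 6 calls of Aqp1 were lost (adjusted p of the F test from 0.0625 to 0.393). The injury difference fell from the mean of 2, 4 and 6 h to that of 24 and 48 h by 0.52 (SE 0.19, limma adjusted p = 0.031), a call lost without any 1 of 8 arrays, S-EtOH 4 h duplicate 1, 24 h duplicate 1 or 48 h duplicate 2, or SCI-EtOH 2 h, 4 h, 6 h or 48 h duplicate 1 or 24 h duplicate 2 (adjusted p from 0.056 to 0.095). At 0 h the SCI-EtOH rats had 0.20 and 0.27 and the S-EtOH rats -0.31 and -0.14. That 0 h difference of 0.46 did not pass over all genes (limma adjusted p = 0.36, unadjusted p = 0.030), and 0 of the 8 genes did at 0 h, beside 0.0419% of all genes, with Aqp1 and Aqp9 at an unadjusted p under 0.05.

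With MP, the 14 SCI-MP arrays ran from -0.12 to 0.73 with a median of 0.29, and 10 of them lay above all 14 S-MP arrays, which ran from -0.48 to 0.14. Aqp1 was 1.48-fold higher in SCI-MP than in S-MP (log2 difference 0.57, SE 0.08, limma adjusted p = 9.4e-08). The order of the group means was SCI-EtOH 0.67, SCI-MP 0.31, S-EtOH -0.21 and S-MP -0.26. The step between the 2 sham groups did not pass the threshold (difference 0.05, limma adjusted p = 0.78), and every other neighbouring step did.

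Markers of red blood cells also rose with injury. All 7 measured erythrocyte markers of 10 listed were higher in SCI-EtOH (35.1% of all genes were), with a median log2 difference of 1.16, and their mean level ran from 0.0047 to 1.33 in SCI-EtOH and from -1.06 to -0.02 in S-EtOH. At 0 h it was 0.46 and 0.59 in the injured rats and -0.62 and -0.39 in the sham rats. Of 7 measured endothelial markers, 5 were higher and 1 lower in SCI-EtOH (35.1% and 27.5% of all genes). Their part in the Aqp1 values was not tested, and the values hold no absolute level from which a marker could be read as absent.

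Aqp4, the main water channel of astrocyte endfeet, fell with injury, most at 24 and 48 h. Its S-EtOH arrays from 2 h on ran from -0.07 to 0.33 with a median of 0.15 and its SCI-EtOH arrays from -2.01 to -0.05 with a median of -0.39. Of the 14 SCI-EtOH arrays, 13 lay below all S-EtOH arrays. Aqp4 was 1.74-fold lower in SCI-EtOH (log2 difference -0.80, SE 0.07, limma adjusted p = 6.4e-12) and 1.57-fold lower in SCI-MP than in S-MP (log2 difference -0.65, SE 0.07, limma adjusted p = 6.5e-10).

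The fall of Aqp4 had a late course. At 2 h the SCI-EtOH rats had -0.09 and -0.05, at 12 h -0.28 and -0.74, at 24 h -1.38 and -1.35 and at 48 h -2.01 and -1.36. The SCI-MP rats had 0.28 and -0.28 at 2 h, -1.02 and -0.56 at 24 h and -1.86 and -2.01 at 48 h. Sham rats stayed between -0.07 and 0.35 at all times. The difference at 48 h was 3.82-fold without MP and 4.07-fold with MP. The change from 2~6 h to 24~48 h was -1.32 (SE 0.17, limma adjusted p = 3.6e-07) without MP and -1.10 (SE 0.17, limma adjusted p = 1.8e-05) with MP. After quantile normalization between arrays both changes of Aqp4 were smaller, -0.66 without MP and -0.54 with MP (adjusted p = 0.0033 and 0.013).

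Kcnj10 also fell most at 24 and 48 h. Its 14 SCI-EtOH arrays ran from -1.55 to 0.35 with a median of -0.03, and 6 of them lay below all S-EtOH arrays, which ran from -0.16 to 0.34. The 6 arrays were those of 8, 24 and 48 h. Kcnj10 was 1.39-fold lower in SCI-EtOH (log2 difference -0.48, SE 0.07, limma adjusted p = 2.7e-07) and 1.66-fold lower in SCI-MP than in S-MP (log2 difference -0.73, SE 0.07, limma adjusted p = 2.2e-11).

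Without MP the Kcnj10 values at 12 h were 0.02 and -0.07, within the sham range, and those at 24 h were -1.07 and -0.98. With MP they were already -0.76 and -0.95 at 12 h, and 10 of the 14 SCI-MP arrays lay below all S-MP arrays. At 48 h the difference from sham was 2.80-fold without MP and 2.61-fold with MP. The change from 2~6 h to 24~48 h was -1.15 (SE 0.16, limma adjusted p = 1.8e-06) without MP and -0.66 (SE 0.16, limma adjusted p = 0.0030) with MP. After quantile normalization that without MP was -0.46 (adjusted p = 0.017), that with MP was lost (Kcnj10 at -0.0022, adjusted p = 0.995), and the mean difference between SCI-MP and S-MP was -0.46 (adjusted p = 5.9e-09).

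Astrocyte markers fell along with Aqp4 and Kcnj10. Of 9 measured markers of 11 listed, 8 were lower in SCI-EtOH with a median log2 difference of -0.66, and 8 were lower in SCI-MP (27.5% and 33.3% of all genes). Their mean level ran from 0.02 to 0.28 in S-EtOH, from -1.14 to 0.08 in SCI-EtOH and from -1.49 to -0.0062 in SCI-MP, and from 2~6 h to 24~48 h 8 of 9 fell further without MP (14.8% of all genes). The share of this in the 2 endfoot genes was not tested.

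Slc12a5 had the deepest fall of the 8 genes. Its promoter is shown as that of the member that fell most, 250 bases before the RefSeq start (GRCr8, chr3:174115583-174115832, plus strand), with its 1 match to the motifs searched, a GC box, in capitals.
Slc12a5: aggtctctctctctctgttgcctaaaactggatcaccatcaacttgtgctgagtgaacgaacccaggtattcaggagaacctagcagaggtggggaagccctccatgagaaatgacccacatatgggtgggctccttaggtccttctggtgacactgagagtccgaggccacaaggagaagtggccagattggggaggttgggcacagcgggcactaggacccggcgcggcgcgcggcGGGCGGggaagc
The TATA box found before Aqp1 is not in these letters.

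The Slc12a5 values of S-EtOH from 2 h on ran from 0.12 to 0.56 with a median of 0.34, and those of SCI-EtOH from -2.76 to -0.11 with a median of -1.30. At 0 h the injured rats had 0.41 and 0.46 and the sham rats 0.44 and 0.49, and their ranges overlapped. The injured values were then -0.15 and -0.23 at 2 h, -0.36 and -1.19 at 4 h, -0.11 and -0.29 at 6 h, -1.29 and -1.32 at 8 h, -1.64 and -1.43 at 12 h, -2.76 and -1.88 at 24 h and -2.72 and -2.47 at 48 h. The 6 h pair was higher than those of 4 h and 8 h. All 14 injured arrays lay below all 14 sham arrays, with and without MP.

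Over 7 times Slc12a5 was 3.04-fold lower in SCI-EtOH (log2 difference -1.61, SE 0.10, limma adjusted p = 2.5e-15) and 3.66-fold lower in SCI-MP than in S-MP (-1.87, SE 0.10, limma adjusted p = 4.9e-17). At 48 h the difference was 7.44-fold without MP and 9.47-fold with MP. Its change from 2~6 h to 24~48 h was -2.02 (SE 0.25, limma adjusted p = 1.6e-07) without MP and -1.47 (SE 0.25, limma adjusted p = 4.9e-05) with MP. After quantile normalization these were -0.84 (adjusted p = 0.0020) and -0.47 (adjusted p = 0.082), so the change with MP was lost. At single times it passed at 5 of 7 times without MP and at 7 of 7 with MP, of which 4 and 6 held in every fit without 1 array. Under the plain analysis of variance its calls at 4 and 24 h without MP, and at 2, 4 and 24 h with MP, were lost.

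All 11 measured neuron markers of 12 listed were lower in SCI-EtOH (27.5% of all genes were), with a median log2 difference of -1.19 and a range from -2.70 to -0.93, so the difference of Slc12a5 lay inside the range of the markers. Their mean level ran from -2.05 to -0.33 in SCI-EtOH and from 0.11 to 0.41 in S-EtOH. Whether neurons were fewer or held less of this transcript cannot be told apart.

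Slc12a2, the inward cotransporter, fell less and varied more between duplicates. Its S-EtOH arrays ran from -0.12 to 0.13 with a median of 0.01, and its SCI-EtOH arrays from -1.10 to 0.18 with a median of -0.20, 8 of them below all S-EtOH arrays. The 2 SCI-EtOH rats were at -1.10 and 0.18 at 6 h and at -0.27 and -1.07 at 24 h, farther from each other than the group means are. Slc12a2 was 1.25-fold lower in SCI-EtOH (log2 difference -0.33, SE 0.10, limma adjusted p = 0.0047) and 1.33-fold lower in SCI-MP than in S-MP (-0.41, SE 0.10, limma adjusted p = 5.3e-04). After quantile normalization the former was -0.20 (adjusted p = 0.033). At single times it passed only at 24 h with MP (-0.76), and not in every fit without 1 array.

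Abcc8 fell with injury in both medication groups. Its S-EtOH arrays ran from 0.03 to 0.39 with a median of 0.14, and its SCI-EtOH arrays from -1.05 to 0.22 with a median of -0.24. Of the 14 injured arrays, 12 lay below all sham arrays without MP and 12 with MP. Abcc8 was 1.40-fold lower in SCI-EtOH (log2 difference -0.49, SE 0.06, limma adjusted p = 4.0e-09) and 1.44-fold lower in SCI-MP than in S-MP (-0.53, SE 0.06, limma adjusted p = 7.3e-10). At 24 and 48 h the SCI-EtOH values were -0.81, -0.86, -1.05 and -0.91, and the S-EtOH values 0.08, 0.05, 0.09 and 0.03. The change from 2~6 h to 24~48 h was -0.78 (SE 0.14, limma adjusted p = 3.9e-05) without MP, lost after quantile normalization (-0.28, adjusted p = 0.18). With MP it was -0.14 (limma adjusted p = 0.53), and the SCI-MP rats at 4 h had -0.89 and -0.03, the widest pair of Abcc8.

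Trpm4, described in injured cord as a partner of Abcc8, ran the other way. Its S-EtOH arrays ran from -0.02 to 0.15 with a median of 0.05, and its SCI-EtOH arrays from -0.17 to 0.71 with a median of 0.26. Of the SCI-EtOH arrays 9 lay above all S-EtOH arrays and 4 below. Trpm4 was 1.14-fold higher in SCI-EtOH (log2 difference 0.19, SE 0.06, limma adjusted p = 0.0034), a call lost after quantile normalization (0.09, adjusted p = 0.14). It was highest at 48 h, at 0.53 and 0.71, when it was 1.49-fold higher than in sham rats, and it lay at -0.13 and -0.04 at 8 h.

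In SCI-MP the mean difference of Trpm4 from S-MP was -0.0053 (SE 0.06, limma adjusted p = 0.94), and values of 8 and 12 h between -0.34 and -0.23 stood beside 0.42 and 0.39 at 48 h. Its change from 2~6 h to 24~48 h with MP was 0.37 (SE 0.13, limma adjusted p = 0.040), which was lost without any 1 of 13 arrays (adjusted p up to 0.17) and after quantile normalization (0.17, adjusted p = 0.47).

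Aqp9, a channel that passes water and small solutes such as glycerol and lactate and is found in liver, in leukocytes and in some astrocytes, had no difference past the threshold in SCI-EtOH against S-EtOH (log2 difference 0.08, SE 0.05, limma adjusted p = 0.13). Its promoter is shown as that of a member that was lower with MP in injured rats. In sham rats Aqp9 was not lower with MP (log2 difference 0.12, limma adjusted p = 0.096). This promoter was also chosen because it held the only glucocorticoid receptor hexamer among the promoters matched (AGAACA, found on the opposite strand as TGTTCT, in capitals). Shown are 250 bases before a RefSeq transcript start (GRCr8, chr8:80718189-80718438, minus strand). The RefSeq gene extends upstream of that start, to 80718273. The hexamer, which begins 31 bases before the start, therefore lies inside the gene.
Aqp9: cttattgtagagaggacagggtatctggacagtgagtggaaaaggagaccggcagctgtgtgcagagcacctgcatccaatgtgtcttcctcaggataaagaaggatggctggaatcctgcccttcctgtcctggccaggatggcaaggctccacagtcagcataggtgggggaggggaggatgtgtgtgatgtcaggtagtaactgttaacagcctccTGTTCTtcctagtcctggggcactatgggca
This hexamer is in 17.5% of all promoters of this length. RefSeq promoters were matched for 7 of the 8 genes. The full palindromic glucocorticoid element (0.012% of promoters) and the AP-1 site TGANTCA (6.34% of promoters) matched in none of them, and a GC box matched in those of Trpm4, Slc12a5, Aqp1, Kcnj10, Aqp4 and Slc12a2.

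The Aqp9 values of SCI-EtOH scattered from -0.37 to 0.85, with 4 arrays above and 4 below all S-EtOH arrays, which ran from -0.14 to 0.16. They were 0.39 and 0.85 at 24 h, when Aqp9 was higher than in S-EtOH (log2 difference 0.52, moderated F test adjusted p = 8.6e-04), -0.17 and -0.37 at 4 h and -0.07 and -0.25 at 48 h. At 0 h the injured rats had 0.20 and 0.33 and the sham rats -0.13 and -0.05, a difference of 0.35 (limma adjusted p = 0.24, unadjusted p = 0.0088). With MP the SCI-MP arrays ran from -0.30 to 0.13 and S-MP arrays from -0.15 to 0.36, and Aqp9 was 1.18-fold lower in SCI-MP (log2 difference -0.24, SE 0.05, limma adjusted p = 8.2e-05). At 48 h that difference was -0.51 (moderated F test adjusted p = 0.0030) and held in every fit without 1 array, and neither single-time call passed the plain analysis of variance. The order of the means was S-MP 0.12, SCI-EtOH 0.075, S-EtOH -0.0081 and SCI-MP -0.12, and no neighbouring pair in it passed the threshold (adjusted p from 0.054 to 0.455). Of 9 measured neutrophil markers, 7 were higher in SCI-EtOH and 0 lower (35.1% and 27.5% of all genes), and 5 were lower in SCI-MP than in SCI-EtOH with 1 higher (31.7% and 10.4% of all genes). Their part in Aqp9 was not tested.

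Time by time, injury calls among the 8 genes became more frequent, as they did among all genes. Without MP 1, 2, 2, 3, 4, 5 and 6 of 8 genes passed from the first time, 2 h, to the last, 48 h, beside 6.25%, 15.2%, 13.4%, 20.7%, 27.5%, 32.2% and 31% of all genes. With MP 1, 5, 4, 2, 5, 6 and 5 passed, beside 4.2%, 16.1%, 26.9%, 15.7%, 30.2%, 24.4% and 28.7%. Of 23 calls without MP 12 held in every fit without 1 array, and of 28 with MP 16 did. The plain analysis of variance made 10 calls without MP and 10 with MP, of which 9 and 10 were among these. None of its calls was of Aqp1, Aqp9, Trpm4 or Slc12a2.

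**Figure D3:**
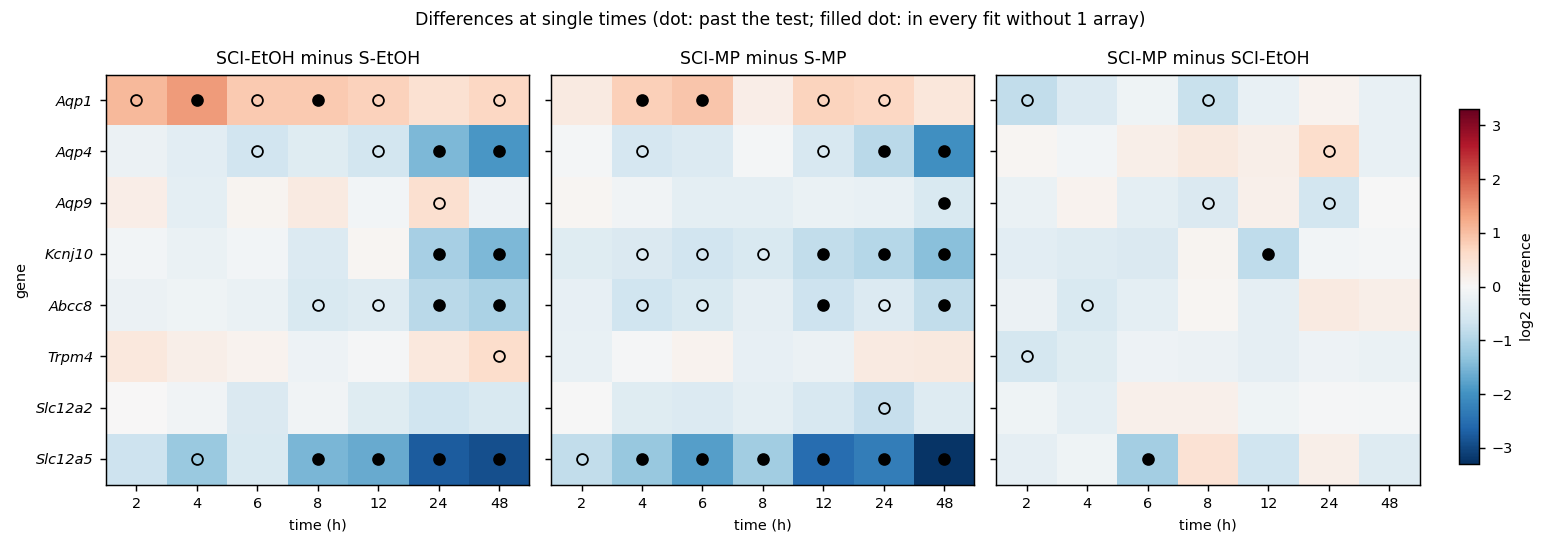
Log2 difference at each time in h (horizontal axis) for each gene (vertical axis) in 3 comparisons, as colour from blue (lower) to red (higher), with open dots for calls and filled dots for calls that held in each of the 60 fits without 1 array. The filled dots without MP are at 24 and 48 h for Aqp4, Kcnj10 and Abcc8, at 8, 12, 24 and 48 h for Slc12a5 and at 4 and 8 h for Aqp1.

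Comparing the injured groups, 5 of the 8 genes were lower in SCI-MP than in SCI-EtOH and 0 higher (31.7% and 10.4% of all genes, 42.1% in either direction). These were Aqp1 (log2 difference -0.36, limma adjusted p = 3.7e-04), Aqp9 (-0.19, limma adjusted p = 0.0016), Kcnj10 (-0.30, limma adjusted p = 5.9e-04), Trpm4 (-0.29, limma adjusted p = 1.1e-04) and Slc12a5 (-0.29, limma adjusted p = 0.024). The largest of these is a factor of 1.28, for Aqp1. In the SCI-MP arrays 7 of 14 values of Aqp1 and 6 of 14 of Trpm4 lay below all SCI-EtOH values, and for Aqp9 0 did. At each of 7 times the mean of Trpm4 was lower with MP, and for Aqp1 and Kcnj10 it was lower at 6 of 7. After quantile normalization the difference of Aqp9 was -0.13 (adjusted p = 0.027). With array weights Slc12a5 lost its call (limma adjusted p = 0.059), and the others kept theirs (limma adjusted p up to 0.016, for Aqp9).

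Of all genes 10.4% were higher in SCI-MP than in SCI-EtOH. Some cell type markers were also lower in SCI-MP than in SCI-EtOH, as were 31.7% of all genes. These were 5 of 9 measured neutrophil markers (with 1 higher), 5 of 9 of microglia and macrophages, 3 of 7 of erythrocytes, 2 of 7 of endothelium, 2 of 4 of Schwann cells and roots and 2 of 9 of astrocytes. Of 11 neuron markers 2 were lower and 2 higher, and of 8 oligodendrocyte markers also 2 and 2. Of 5 ependymal and choroid plexus markers 0 were lower and 1 higher. Of 7 fibroblast and meningeal markers 0 were lower and 0 higher. Their part in the 5 differences was not tested.

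The Slc12a5 difference with MP did not pass without the 6 h arrays, where SCI-EtOH had -0.11 and -0.29 and SCI-MP -1.30 and -1.36. It was -0.14 without them (limma adjusted p = 0.34). It was also lost without SCI-EtOH 4 h duplicate 1, SCI-EtOH 24 h duplicate 2, or duplicate 1 of SCI-MP at 4, 12 or 24 h (adjusted p from 0.055 to 0.072). Aqp4 was 0.14 higher with MP (limma adjusted p = 0.099) and passed without any 1 of 5 arrays. For Aqp4 the 95% interval of the difference ran from 0.0005 to 0.29.

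No rat with MP was taken at 0 h, and at that time SCI-EtOH rats stood 0.46 (Aqp1) and 0.35 (Aqp9) above sham rats, so whether the injured groups differed at 0 h could not be measured.

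At single times, 9 calls with MP in injured rats were made over the 8 genes, 2, 1, 1, 2, 1, 2 and 0 of 8 from 2 to 48 h, beside 5.09%, 5.94%, 13.2%, 9.68%, 16.5%, 9.26% and 6.84% of all genes. Of the 9, those of Slc12a5 at 6 h (log2 difference -1.13) and Kcnj10 at 12 h (-0.83) held in every fit without 1 array. Of all 9, only that of Slc12a5 at 6 h passed the plain analysis of variance, which made 3 other calls, Slc12a5 at 8 h (0.48) and Abcc8 at 12 h (-0.31) and 24 h (0.29). Aqp1 passed at 2 h (-0.82) and at 8 h (-0.73), when the SCI-MP rats had -0.08 and 0.05 beside 0.65 and 0.78. Aqp9 passed at 8 h (-0.49) and 24 h (-0.60), Trpm4 at 2 h (-0.57), and Aqp4, in the other direction, at 24 h (0.58). Abcc8 passed at 4 h (-0.51), which was -0.07 without SCI-MP 4 h duplicate 1 (adjusted p = 0.44) and was also lost without SCI-EtOH 4 h duplicate 1 (-0.33).

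In sham rats 0 of the 8 genes differed with MP over 7 times (limma), where 9.85% of all genes did, and 1 of them, Aqp9, had an unadjusted p under 0.05. The differences ran from -0.09 for Trpm4 to 0.12 for Aqp9, whose 95% interval ran from 0.03 to 0.22. For Aqp4 the difference was -0.0035 with an interval from -0.15 to 0.14. At single times the only call was Aqp9 at 48 h (log2 difference 0.35), where the S-MP rats had 0.32 and 0.36 and the S-EtOH rats 0.13 and -0.14, and it did not hold in every fit without 1 array. Of all genes 0.838%, 0.977%, 3.16%, 5.59%, 3.44%, 1.07% and 0.447% passed in sham rats from 2 to 48 h. Aqp9 passed over 7 times after quantile normalization (0.18, adjusted p = 0.0020) and with array weights (0.12, adjusted p = 0.012).

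The injury difference itself was tested between medication groups. As a signed value, it was lower with MP for 3 of the 8 genes and higher for 0 (20.2% and 5.45% of all genes, 25.7% in either direction). It was lower by 0.31 for Aqp1 (limma adjusted p = 0.036), 0.32 for Aqp9 (limma adjusted p = 8.2e-04) and 0.26 for Kcnj10 (limma adjusted p = 0.047). The rise of Aqp1 was smaller with MP (0.57 beside 0.88), whereas the fall of Kcnj10 was larger (-0.73 beside -0.48). For Aqp9 the difference was -0.24 with MP and 0.08 without. Aqp9 kept its call between medication groups without any 1 array, whereas that of Aqp1 was lost in 15 of the 60 fits without 1 array (adjusted p up to 0.068) and that of Kcnj10 in 40 (up to 0.083). Neither passed after quantile normalization (Aqp1 -0.21, adjusted p = 0.10, and Kcnj10 -0.10, adjusted p = 0.34), nor with a replicate block (adjusted p = 0.0504 and 0.0543). Kcnj10 was also lost without the 6 h arrays (-0.21, adjusted p = 0.16), with array medians at 0 (-0.24, adjusted p = 0.081) and without the 0 h arrays (-0.26, adjusted p = 0.057). Of all genes called in this test 21.2% were higher with MP, and 31.2% after quantile normalization. The change from 2~6 h to 24~48 h passed for 5 of the 8 genes without MP, all downward (14.8% of all genes, 31.4% in either direction), and for 3 downward and 1 upward with MP (8.87% and 15.9% of all genes, 24.8% in either direction), but its difference between medication groups passed for 0 of the 8 (limma, 3 at an unadjusted p under 0.05, Aqp9, Kcnj10 and Abcc8) and for 7 of all genes (0.0489%).

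The group means over 7 times put the sham groups next to each other for 7 of the 8 genes (all but Aqp9), with no difference past the threshold. For Aqp4 the sham means, both 0.14, were followed by SCI-MP at -0.51 and then SCI-EtOH at -0.66. Slc12a5 started from sham means of 0.33 and 0.31, and SCI-EtOH (-1.27) came before SCI-MP (-1.56). Kcnj10 had sham means of 0.13 and 0.08, then -0.35 for SCI-EtOH, with SCI-MP lowest at -0.65. The last step passed for Slc12a5 and Kcnj10 but not for Aqp4. Slc12a2 (sham 0.04 and 0.01, SCI-EtOH -0.31, lowest SCI-MP -0.37) and Abcc8 (sham 0.17 and 0.09, SCI-EtOH -0.32, lowest SCI-MP -0.43) passed only at the step from sham to injured. For Trpm4 SCI-EtOH was highest at 0.25, and the remaining means of 0.06, -0.03 and -0.04 had no step past the threshold.

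The 8 genes fall into those that move together over the 30 means of a group and time and those that do not. Over these means, which share the arrays and the injury, the correlation of Slc12a5 was 0.95 with Abcc8, 0.92 with Kcnj10, 0.89 with Aqp4 and 0.84 with Slc12a2. Aqp1 was at -0.66 and Trpm4 at -0.38 against Slc12a5, and Aqp9 had no correlation above 0.13 in size with any of the other genes. The genes most like Slc12a5 were Grin1, the obligatory NMDA receptor subunit, and the plasma membrane calcium pumps Atp2b3 and Atp2b2 (r = 0.997, 0.996 and 0.996, n = 30 means). Those most like Kcnj10 were Abca2, Bcan and Mmd2 (0.987, 0.985 and 0.982), and those most like Aqp4 were Cntn1, Ndrg2 and Sort1 (0.970, 0.965 and 0.964). Abcc8 was closest to Tagln3, Hhatl and Acsl6 (0.968, 0.968 and 0.964) and Slc12a2 to Elovl5, Atrn and Me1 (0.922, 0.920 and 0.916). Aqp1 was closest to Zfp36l1, Pf4, a platelet chemokine, and Slc25a39 (0.914, 0.913 and 0.911), Trpm4 to Lsm6, Steap3 and Hsd3b7 (0.864, 0.855 and 0.852) and Aqp9 only loosely to Eefsec, Atg4b and Top1mt (0.727, 0.720 and 0.708).

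The other genes of water and ion transport were described from lists, of which the 3 largest called changes with injury and up to 2 for each MP comparison are named. Of 9 other aquaporins 4 were higher and 2 lower in SCI-EtOH (median 0.09), beside 35.1% and 27.5% of all genes. Aqp11, which lies in intracellular membranes, fell by 0.57 (SE 0.05, limma adjusted p = 8.1e-12), while Aqp12a rose by 0.19 and Aqp6 fell by 0.16 (limma adjusted p = 7.1e-06 and 0.0041). With MP in injured rats Aqp11 was lower still (-0.23, limma adjusted p = 3.9e-04) and Aqp6 higher (0.21, limma adjusted p = 5.8e-04). Their injury differences also differed between medication groups, by -0.19 for Aqp11 and 0.29 for Aqp6 (limma adjusted p = 0.043 and 0.0016), that of Aqp11 lost without any 1 of 34 arrays.

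Of 9 measured cation-chloride cotransporters and kinases of 13 listed, 3 were higher and 2 lower in SCI-EtOH (35.1% and 27.5% of all genes). The kinases that phosphorylate these cotransporters differed, with Stk39 (SPAK) at -0.47 (limma adjusted p = 6.3e-09) and Oxsr1 (OSR1) at 0.24 (limma adjusted p = 1.6e-04). The potassium-chloride cotransporter Slc12a4 (KCC1) was at 0.31 (limma adjusted p = 9.9e-05). With MP in injured rats Slc12a4 was lower (-0.50, limma adjusted p = 2.0e-07) and Oxsr1 higher (0.45, limma adjusted p = 1.9e-08), and the injury difference of each differed with MP, by -0.40 and 0.37 (limma adjusted p = 0.0015 and 3.1e-04).

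Among 14 other inward rectifier genes and the second sulfonylurea receptor, 7 were lower and 4 higher in SCI-EtOH (27.5% and 35.1% of all genes). Kcnj3, a subunit of G protein-gated channels of neurons, was at -1.42 (limma adjusted p = 6.1e-15), Kcnj14 at -0.68 (limma adjusted p = 2.3e-13) and Kcnj16, which assembles with Kcnj10, at -0.68 (limma adjusted p = 1.3e-07). Kcnj2 was lower with MP in injured rats (-0.25, limma adjusted p = 0.0028) and higher in sham rats (0.27, limma adjusted p = 0.0080), Kcnj12 was higher in injured rats (0.36, limma adjusted p = 8.6e-05) and Kcnj13 higher in sham rats (0.28, limma adjusted p = 0.021, lost without any 1 of 3 arrays). The injury differences of Kcnj2 and Kcnj12 differed with MP, by -0.52 and 0.51 (limma adjusted p = 1.3e-04 and 2.3e-04). Of 8 other TRPM and TRPV4 channels listed, 5 were measured, all of them TRPM. Trpv4, Trpm5 and Trpm6 were not among the genes tested. Of the 5, Trpm3 (-0.94, limma adjusted p = 1.2e-12) and Trpm2 (-0.28, limma adjusted p = 0.0017) were lower and 0 were higher, unlike Trpm4 (27.5% and 35.1% of all genes). With MP in injured rats Trpm2 was at -0.28 (limma adjusted p = 0.0038) and Trpm3 at 0.19 (limma adjusted p = 0.048), the latter lost without any 1 of 42 arrays.

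Of the genes whose products anchor Aqp4 at the endfoot, 7 of 13 listed were measured. In SCI-MP against S-MP 6 of them were lower (33.3% of all genes). In SCI-EtOH 4 were lower and 0 higher (27.5% and 35.1% of all genes), with a median of -0.21. The genes lower in SCI-EtOH include dystrophin, Dmd (-0.55, limma adjusted p = 1.3e-09), Mlc1, an astrocyte membrane protein whose loss causes vacuolating leukoencephalopathy in humans (-0.37, limma adjusted p = 3.0e-06), and agrin, Agrn (-0.37, limma adjusted p = 2.6e-06). In SCI-MP against SCI-EtOH Mlc1 and Sntb1 were lower (-0.32 and -0.29, limma adjusted p = 9.0e-05 and 5.6e-04). As a signed value, the injury difference moved down with MP for Mlc1 by 0.26, to -0.63 (limma adjusted p = 0.027). That of Dtnb moved down by 0.19, to -0.40 (limma adjusted p = 0.042, lost without any 1 of 33 arrays). Utrn was higher with MP in sham rats (0.17, limma adjusted p = 0.045, lost without any 1 of 22).

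Of 8 measured sodium pump genes of 11 listed, 6 were lower and 1 higher in SCI-EtOH (27.5% and 35.1% of all genes). The beta subunits Atp1b1 and Atp1b2, of which the latter is that of astrocytes, were at -1.46 and -1.09 (limma adjusted p = 4.0e-17 and 1.0e-12), and the modulator Fxyd5 at 0.89 (limma adjusted p = 8.9e-11). Between the injured groups Fxyd2 and Atp1b3 were higher with MP (0.42 and 0.34, limma adjusted p = 0.0011 and 2.6e-04). Their injury differences, as signed values, also moved up with MP by 0.63 and 0.37, to 0.70 and 0.08 (limma adjusted p = 0.0016 and 0.0061). In sham rats Fxyd6 was lower with MP (-0.21, limma adjusted p = 0.043), lost without any 1 of 20 arrays.

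Of 11 measured anion channel genes of 13 listed, 4 were lower and 3 higher in SCI-EtOH (27.5% and 35.1% of all genes). Ttyh1 and Ttyh3 of the tweety family were at -0.85 and -0.50 (limma adjusted p = 9.8e-13 and 4.9e-06) and Clcn3 at -0.45 (limma adjusted p = 8.7e-08). With MP in injured rats 7 were lower and 1 higher (31.7% and 10.4% of all genes). Among the lower were Clcn2, a chloride channel of glia and neurons, at -0.42 and Ttyh1 at -0.39 (limma adjusted p = 1.5e-05 and 2.5e-05). Ttyh1 was lower with MP in sham rats too (-0.25, limma adjusted p = 0.019). The injury differences of Clcn2 and Clcn3, as signed values, moved down with MP by 0.36 and 0.26, to -0.39 and -0.71 (limma adjusted p = 0.0081 and 0.026).

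Of 9 measured sodium, proton and bicarbonate exchangers and carbonic anhydrases of 10 listed, 6 were lower and 3 higher in SCI-EtOH (27.5% and 35.1% of all genes). From 2~6 h to 24~48 h 8 fell without MP (14.8% of all genes). The sodium bicarbonate transporter Slc4a10 of neurons was at -0.98 (limma adjusted p = 3.1e-10), the sodium calcium exchanger Slc8a3 at -0.69 (limma adjusted p = 1.8e-09) and Car4, a carbonic anhydrase bound to endothelial membranes, at 0.76 (limma adjusted p = 1.0e-09). Car4 and Slc4a7 were lower in SCI-MP than in SCI-EtOH (-0.50 and -0.29, limma adjusted p = 1.4e-05 and 0.0016). The injury differences of Car4 and Slc4a8, as signed values, moved down with MP by 0.40 and 0.38, to 0.37 and -1.04 (limma adjusted p = 0.0125 and 0.0099). The lists are plotted by gene for injury and for MP in injured rats.

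**Figure D4:**
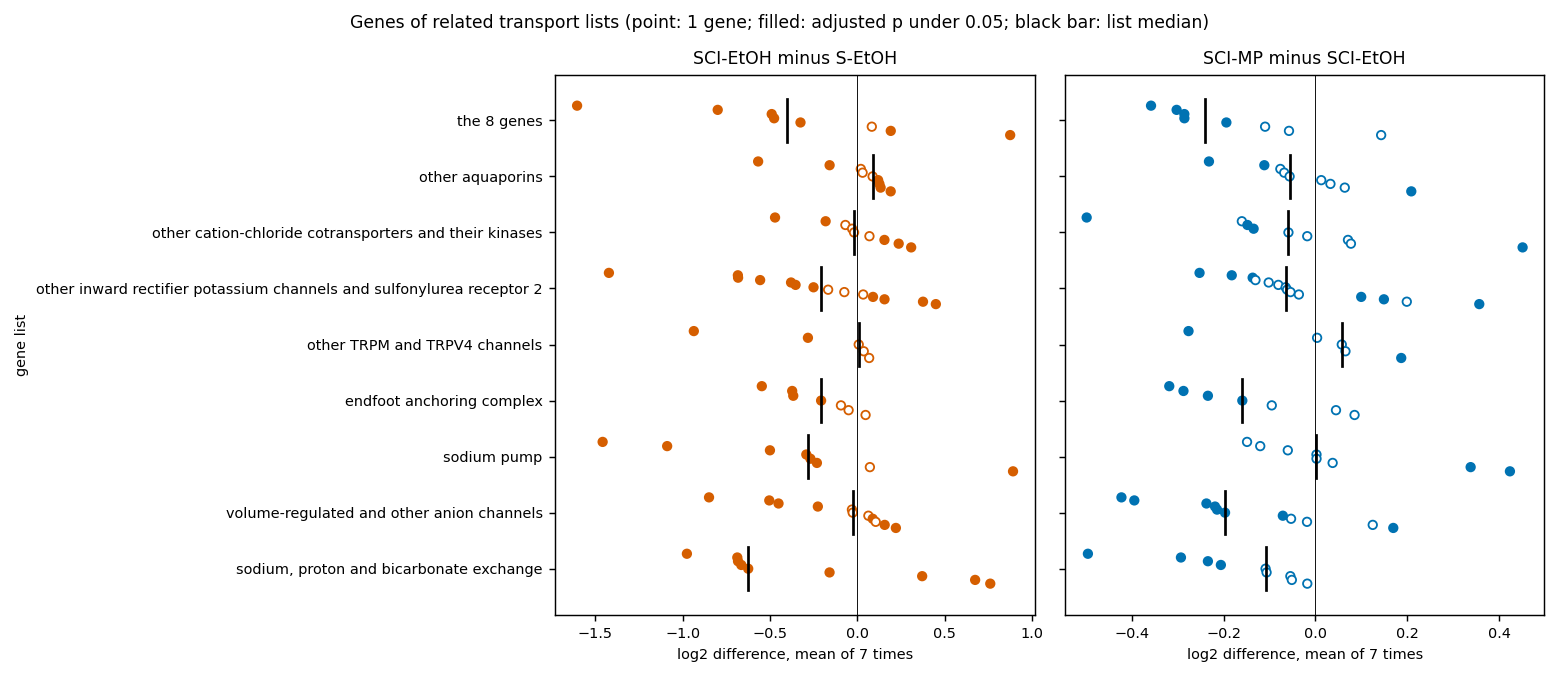
Mean log2 difference over 7 times (horizontal axis) of each gene in 9 lists (vertical axis) for injury without MP (left) and MP in injured rats (right), with 1 point per gene, filled at an adjusted p under 0.05, and a black bar at the list median. The median of the 8 genes lies at -0.40 for injury, and Fxyd5 of the sodium pump list at 0.89 lies farthest right.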

How the data were processed

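Total RNA of 60 rats was read on Rat Gene 1.0 ST arrays, 1 per rat. The deposited values are log2 expression that the authors summarised by RMA, then normalized within each chip and each gene (GeneSpring GX 11), and the reference of the centring and the genome build are not given in the sources used here. Of 27342 probe sets, 15097 carried 1 gene symbol, 323 several and 11922 none. Probe sets with a coefficient of variation under 50% in at least 16 of the 30 duplicate pairs on the linear scale were kept, which left 27338 and so hardly filtered, and those of 1 gene were averaged, giving 14324 genes. R 4.3.3 and limma 3.58.1 fitted 1 mean per group and time, with Benjamini-Hochberg adjustment at 0.05 over all genes. The 24~48 h phase was compared with 2~6 h. Single times used the moderated F test and Tukey's range. The fit was tested on simulated data of 14324 genes, where 95 of 100 genes changed by 0.5 in SCI-EtOH against S-EtOH over 7 times were called, but 47 of 100 at the single time of 12 h. The simulation gave each gene the same spread in all groups, whereas the injured pairs of the data spread more than the sham pairs. These rates therefore need not hold for the data. No other value columns were left out (0). The genes and lists were chosen with earlier results of these data known. Genes of each list were named by the 3 largest called changes with injury without MP and at most 2 in each MP comparison, and 3 most alike genes were named per gene. Labels give no scan dates or batches, and 1 array a rat, 2 rats at each time, limits the precision. Alternatives were no filter, quantile normalization, array medians at 0, array weights, a replicate block, leaving out arrays, adding the 0 h difference, and plain analysis of variance.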

Additional observations from a re-analysis of the deposited data

Results flagged for a closer look

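The injury difference itself differed between medication groups, with MP minus without MP, by -0.31 for Aqp1, -0.32 for Aqp9 and -0.26 for Kcnj10 (limma adjusted p = 0.036, 8.2e-04 and 0.047). That of Kcnj10 was lost in 40 of the 60 fits without 1 array and that of Aqp1 in 15, and both were lost after quantile normalization and with a replicate block. Without MP it differed between 24~48 h and 2~6 h by -0.52 for Aqp1, -1.32 for Aqp4, -2.02 for Slc12a5, -1.15 for Kcnj10 and -0.78 for Abcc8 (limma adjusted p = 0.031, 3.6e-07, 1.6e-07, 1.8e-06 and 3.9e-05). With MP the same comparison of times gave -1.10 for Aqp4, -1.47 for Slc12a5, -0.66 for Kcnj10 and 0.37 for Trpm4 (limma adjusted p = 1.8e-05, 4.9e-05, 0.0030 and 0.040). After quantile normalization the changes over time of Abcc8 without MP and of Slc12a5, Kcnj10 and Trpm4 with MP were lost.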

How the results depend on the processing

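After quantile normalization 4008 genes passed for MP in injured rats, 4276 for MP in sham rats, 1798 for the change from 2~6 h to 24~48 h without MP and 1770 with MP, beside 6024, 1411, 4503 and 3555. Trpm4 with injury and MP then stood at 0.0024, and Abcc8 at 0.0341 for the difference between medication groups and at 0.0957 for the change over time with MP, each with its sign turned. With array weights 4214 genes passed for MP in injured rats and 3453 in sham rats, beside 6024 and 1411. Slc12a5 then lost its call for MP in injured rats (adjusted p = 0.059). Without the 6 h arrays Abcc8 stood at 0.0019 between medication groups and Trpm4 passed there (-0.23, adjusted p = 0.023). Without these arrays Aqp9 also passed for the change over time with MP (-0.36, limma adjusted p = 0.044). With all arrays that change was -0.26 (limma adjusted p = 0.104). With the 0 h difference between SCI-EtOH and S-EtOH added, which takes that difference as absent from injured rats with MP, an assumption that was not tested, the SE of Aqp1 for MP in injured rats rose from 0.08 to 0.22, so that lost calls say nothing of stability. Then 8 genes passed for MP in injured rats and 0 of all genes between medication groups (limma). Aqp1, Aqp9 and Slc12a2 turned to 0.104, 0.1602 and 0.2272 for MP in injured rats, and Aqp1, Aqp9, Slc12a2 and Abcc8 to 0.1542, 0.0354, 0.1978 and 0.0262 between medication groups. Of the 58 results of other transport genes, quantile normalization lost 8, those of Aqp11, Mlc1, Dtnb, Clcn2 and Car4 between medication groups and of Kcnj2, Trpm3 and Slc4a7 for MP in injured rats. Array medians at 0 lost 5, array weights 4, leaving out the 0 h arrays 4 and leaving out the 6 h arrays 6. The cause of these changes was not tested. Each gene had 1 probe set, so using each alone gave no other value.

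Leaving out 1 array at a time, values turned sign in some of the 60 fits only where the fit over all arrays made no call. Trpm4 ran from -0.0315 to 0.0209 for injury with MP, Slc12a2 from -0.1489 to 0.0338 and from -0.1783 to 0.0044 for MP in injured rats and between medication groups, and Abcc8 from -0.0985 to 0.0247 between them. In sham rats with MP Aqp4 ran from -0.0302 to 0.0232, Slc12a2 from -0.023 to 0.0817 and Slc12a5 from -0.0477 to 0.011, and Aqp1 ran from -0.3335 to 0.039 for the change over time with MP. Of 58 results of the other transport genes named, 6 were lost in some of these fits and 0 turned sign.

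Same-numbered duplicates deviated together by over 0.1 in 11 of 43 pair correlations, so the numbers were not taken as pairing. With the replicate block 8874 genes passed for injury without MP, 7802 with MP, 5932 for MP in injured rats, 1330 in sham rats and 3475 between medication groups. Of the 8 genes, Aqp1 (adjusted p = 0.0504) and Kcnj10 (0.0543) then missed the threshold between medication groups, and no other call over 7 times or between phases was lost with the block. At single times the plain analysis of variance with Tukey's range made 10, 10, 4 and 0 calls over the 8 genes for injury without and with MP and for MP in injured and in sham rats, beside 23, 28, 9 and 1, of which 9, 10, 1 and 0 were made by both.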
